A study of Mus musculus with 3 samples.

Results

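Stromal cells of the mouse kidney at E14.5 (embryonic day) were selected by a rule on genes of its outer zone. They were divided by whether a Gdnf transcript was counted in them, and the 2 groups were compared gene by gene. The cells came from wild-type kidneys of a mixed strain, mostly CD-1 with 129, with no treatment and no mutant allele in either group. They were measured in 1 Drop-seq library and 1 10x Chromium library, droplet methods in which every captured transcript carries a unique molecular identifier (UMI) and the counts are of transcript 3' ends. The labels do not say how many embryos or kidneys went into a library, and the C1 library of the same series was not used here.

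The cells were selected on their own counts. A zone stroma cell had 500 or more detected genes, a UMI of 2 or more of Foxd1, Aldh1a2, Crabp1 and Hic1 (the zone genes), a UMI of at most 1 of Cited1, Six2, Crym and Spock2 (the cap genes) and no UMI of Pecam1, Kdr or Epcam. Of 4295 barcodes 775 met this rule, 240 of 2000 in Drop-seq and 535 of 2295 in 10x. A Gdnf-detected cell had 1 or more Gdnf UMIs. There were 67 Gdnf-detected and 173 Gdnf-undetected cells in Drop-seq, and 172 and 363 in 10x. Because Gdnf and the 11 genes of the rule chose the cells, their values are given below as a description and were not tested.

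GDNF is a secreted factor that acts through the receptor RET and its co-receptor GFRA1 on the tips of the ureteric bud, where it drives branching. The classical source is the cap mesenchyme, the nephron progenitors that sit on each bud tip and express Six2 and Cited1. The Foxd1-expressing stroma lies around those caps, makes retinoic acid through the enzyme encoded by Aldh1a2, and gives rise to fibroblasts, pericytes and mesangial cells. Collagens and small proteoglycans such as decorin and lumican are matrix proteins of fibroblasts that rise as stroma matures. The study's title states that stromal cells express Gdnf, and the comparison here asks what else differed between stromal cells in which Gdnf was and was not counted.

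Most detected cells held a single Gdnf UMI, so the division lay at the edge of detection. In Drop-seq 45 of the 67 Gdnf-detected cells had 1 Gdnf UMI, 14 had 2 and 8 had 3 or more, with a highest count of 6. In 10x 110 of 172 had 1, 45 had 2 and 17 had 3 or more, with a highest count of 7. A Gdnf-undetected cell is therefore a cell with no count at this depth and not a cell shown to lack the transcript. Median UMIs per cell were 6630 in detected and 6544 in undetected cells of Drop-seq, and 7972.5 and 6476 in 10x. For the comparisons each detected cell was therefore matched to 1 undetected cell of the same library with nearly the same total, which kept 65 pairs in Drop-seq (2 detected cells had no match) and all 172 in 10x. The matched medians were 6515 and 6494 UMIs in Drop-seq and 7971.5 and 7969.5 in 10x.

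At a fixed depth the share of cells with a Gdnf UMI was higher in zone stroma than in cap mesenchyme in both libraries, and whether the intervals overlapped depended on the thinning. With each cell thinned to 4000 UMIs, 39 of 233 Drop-seq stroma cells (16.7%, exact binomial 95% interval 12.2 to 22.2) and 103 of 490 in 10x (21.0%, 17.5 to 24.9) had one. Without thinning the shares were 27.9% of 240 and 32.1% of 535. In cap mesenchyme cells, taken as cells with 3 or more cap genes and at most 1 zone gene, thinned shares were 11.6% of 292 (8.20 to 15.9) in Drop-seq and 14.2% of 127 (8.62 to 21.5) in 10x. In endothelial cells, which should lack the gene, it was 0 of 60 in Drop-seq and 0 of 214 in 10x, which allows shares of up to 5.0% and 1.40% by a limit of 3 counts, with exact binomial upper limits of 5.96% and 1.71%. Median UMIs before thinning were 6631 and 7197 in stroma and 6911 and 9034.5 in endothelium. In this thinning the stroma and cap intervals overlapped in both libraries. With a second random seed the Drop-seq shares were 20.2% (15.2 to 25.9) in stroma and 9.59% (6.47 to 13.6) in cap mesenchyme, which did not overlap, and the 10x shares 20.2% (16.7 to 24.04) and 15.7% (9.89 to 23.3), which did. At 2500 UMIs they were 9.58% (6.17 to 14.03) and 7.82% (5.02 to 11.5) in Drop-seq. In 10x they were 16.1% (13.1 to 19.5) and 6.82% (3.16 to 12.5), which did not overlap. These intervals, like the others here, cover counting error only.

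**Figure D1:**
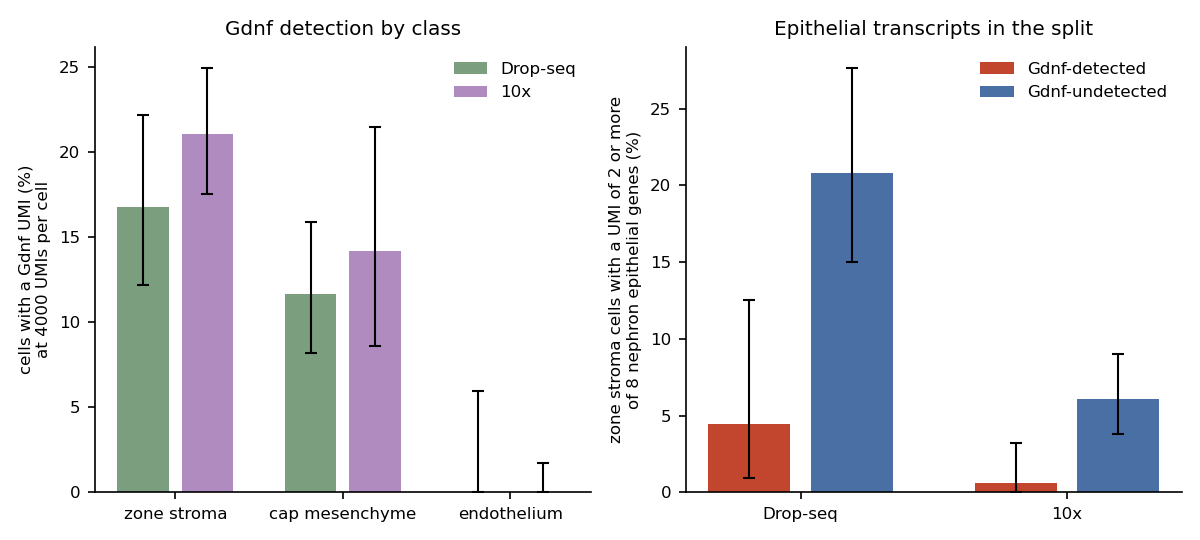
Left, percent of cells with a Gdnf UMI after thinning to 4000 UMIs, by cell class and library. Right, percent of zone stroma cells with a UMI of 2 or more of 8 nephron epithelial genes, in Gdnf-detected and Gdnf-undetected cells of each library. Bars are shares and lines exact binomial 95% intervals. Stroma bars stand at 16.7% and 21.0% against 0 in endothelium, and the epithelial-gene share is 20.8% against 4.48% in Drop-seq and 6.06% against 0.581% in 10x.

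Among the genes of the rule, Aldh1a2, Hic1 and Foxd1 stood higher in CPM in Gdnf-detected cells of both libraries. Aldh1a2, the retinoic acid-synthesising enzyme, had 1020 CPM (UMIs of a sum scaled to the same total for every sum) in detected and 520 in undetected matched cells of Drop-seq, and 607 and 402 in 10x. Hic1, a transcriptional repressor, had 209 and 160 CPM in Drop-seq and 236 and 187 in 10x. Foxd1, the transcription factor that defines this lineage, had 107 and 83.6 CPM in Drop-seq and 203 and 154 in 10x. The share of matched cells with a Foxd1 UMI was 41.5% in both states of Drop-seq, and 71.5% and 58.1% in 10x. Crabp1, a retinoic acid-binding protein, was not ordered alike, at 452 and 397 CPM in Drop-seq and 251 and 285 in 10x. In thinned 10x cells 23.1% of those with an Aldh1a2 UMI had a Gdnf UMI and 8.57% of those without. The same shares were 17.2% and 12.5% in Drop-seq, where 24 cells lacked Aldh1a2. These values describe the chosen cells, among which were cells with nephron epithelial transcripts, described below. Of the matched cells, 2 of 65 detected and 13 of 65 undetected in Drop-seq were of that kind, and 1 and 19 of 172 in 10x. Values without them are not given for these genes.

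The label of stroma was met in part. Of 10 pan-stromal genes 9 were higher in these cells than in cap mesenchyme and endothelium in both libraries, as were 8 of 10 genes of nephrogenic-zone stroma. So were 17 in Drop-seq and 21 in 10x of 22 genes of other kidney stroma (medullary, capsular, mural and ureteric). Those 22 summed to 965 and 1264 CPM, against 628 and 871 for the 10 nephrogenic-zone genes. These lists thus did not single out stroma of the outer zone. Of 20 cap mesenchyme genes outside the rule 2 were highest in these cells, and endothelial genes summed to 186 CPM in Drop-seq and 264 in 10x against 4065 and 4848 in endothelium. Of 11 early nephron genes, however, 7 were highest in the zone stroma cells of each library, and they summed to 829 CPM in Drop-seq stroma, 348 in cap mesenchyme and 640 in endothelium. In 10x the same sums were 257, 174 and 269 CPM, so endothelium was highest there. The erythroid genes summed to 18515 CPM in Drop-seq stroma and 75.2 in 10x.

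Cells with nephron epithelial transcripts were concentrated among the Gdnf-undetected cells. A UMI of 2 or more of 8 nephron epithelial genes, among them Lhx1, Pax8, Emx2, Hes5, Cdh6, Cdh1 and Hnf4a, was found in 3 of 67 detected cells (4.48%, 0.933 to 12.5) and 36 of 173 undetected cells (20.8%, 15.0 to 27.6) in Drop-seq. In 10x it was found in 1 of 172 (0.581%, 0.0147 to 3.20) and 22 of 363 (6.06%, 3.84 to 9.03). These cells met the rule mainly through Aldh1a2 and Crabp1, with a UMI of Aldh1a2 in 94.9% and of Crabp1 in 97.4% in Drop-seq, and of both in all 23 such cells of 10x. Foxd1 had a UMI in 12.8% and 0.0% of them, against 43.8% and 68.9% of the other zone stroma cells, and Hic1 in 33.3% and 8.70% against 70.6% and 81.8%. Col1a2, a chain of type I collagen, had a UMI in 25.6% and 34.8% against 75.1% and 76.6%. Osr2, a transcription factor of nephron epithelium and of mesenchyme, had one in 53.8% and 78.3% against 4.48% and 2.93%. The stromal genes listed here were thus less frequent in these cells, apart from Aldh1a2 and Crabp1. Their median totals were 8495 and 12820 UMIs in cells deep enough to be thinned.

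In addition, 9 Drop-seq cells (3 detected, 6 undetected) had over 1% haemoglobin UMIs, up to 47.9% of a cell. No 10x cell did. Each comparison is therefore given for all cells that met the rule and for a reduced set without these 2 kinds of cell, matched again (58 pairs in Drop-seq, 160 in 10x). The reduction was chosen after the values of all cells had been seen, and the 8 epithelial genes were left untested in it. Tests were made on sums of counts per library and Gdnf state, since cells of a library are not replicates, with edgeR's quasi-likelihood test and the library as a block. That leaves 1 residual degree of freedom. A p-value sets a difference against the spread between 2 libraries of different platforms, which the fit shares in part across genes. In the reduced set that spread was taken as common to all genes. A p-value there does not measure how far the libraries disagreed on a gene, and a small one does not show that they agreed on it.

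Across all cells that met the rule, nephron epithelial genes and some genes of stroma and matrix were lower in Gdnf-detected cells. A small group of genes was higher. Of 8269 genes tested 74 (0.895%) passed an adjusted p of 0.05, 9 higher (0.109%) and 65 lower (0.786%) in Gdnf-detected cells. Of the 11 early nephron genes 7 passed the filter on low counts and 4 fell, with a median log2 fold change of -3.01 against 0.01 over all genes tested. They were Lhx1, Emx2, Pax8 and Hes5, transcription factors of the forming nephron. Pax8 had 3 UMIs in detected and 15 in undetected cells of Drop-seq, and 4 and 43 in 10x (log2 fold change -3.01 ± 0.47 SE, adjusted p = 0.0063). Wnt4, the signal that turns mesenchyme into epithelium and also a gene of medullary stroma, had 3 and 20 UMIs in Drop-seq and 3 and 90 in 10x (-4.13 ± 0.44, adjusted p = 3.6e-04). For both genes each library was lower in the detected cells. Genes of stroma and matrix passed too, counted in lists that share members. Among 16 tested genes of other kidney stroma 5 fell and none rose. Among 61 tested matrix and adhesion genes 7 fell and 1 rose, and among 10 pan-stromal genes 1 fell and 2 rose. Col1a2 (-0.81, adjusted p = 0.0030) and Dcn (-1.52, adjusted p = 4.2e-04) were among the lower genes.

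Hnf4a, Car4, Osr2, Rbm47 and Chchd10 were among the other large decreases, and Hnf4a is a regulator of proximal tubule. Osr2 had 3 and 23 UMIs in Drop-seq and 3 and 126 in 10x (-4.56 ± 0.43). Npnt, the integrin ligand nephronectin through which the ureteric bud sustains Gdnf in the cap, had 0 and 13 UMIs in Drop-seq and 5 and 37 in 10x (-3.29 ± 0.57, adjusted p = 0.011). Sulf1, an enzyme that trims heparan sulphate, had 0 and 7 in Drop-seq and 1 and 16 in 10x (-4.24 ± 0.80, adjusted p = 0.019). Where a sum is 0 the fitted value depends on the count added to each sum. In the reduced set Npnt, Osr2, Car4, Rbm47, Sulf1 and Chchd10 no longer passed the filter on low counts, and Hnf4a was left untested as a gene that chose the cells. Sulf1 had 0 and 4 UMIs there in Drop-seq and 0 and 14 in 10x, and Npnt 0 and 5, and 3 and 13.

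The haemoglobin genes Hba-a1, Hba-a2, Hbb-bs and Hbb-bt fell too, but on few cells. Hba-a1 had 1327 UMIs in detected and 3115 in undetected cells of Drop-seq against 24 and 36 in 10x, and 1 cell held 90.7% of the UMIs of the detected Drop-seq cells. In the reduced set, which lacks the cells over 1% haemoglobin, its log2 fold change was -0.20 ± 0.20 (adjusted p = 0.99). Hba-a1 was among the genes of that limit, so this value only describes the cells kept. Hba-a1 and Hba-a2 are near-identical copies whose reads may be split between them by the counting.

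The 9 genes that were higher in Gdnf-detected cells were higher in both libraries. Mest, an imprinted gene of embryonic mesoderm, had 2127 and 1215 CPM in Drop-seq and 2079 and 1508 in 10x (0.60 ± 0.10, adjusted p = 0.0072). Meis2, a homeodomain transcription factor, had 573 and 397 CPM in Drop-seq and 702 and 493 in 10x (0.51 ± 0.11). Others were Mecom (0.97), a zinc-finger regulator, Fhl2 (0.70), a LIM-domain protein, Shisa3 (0.69), Lsp1 (0.58) and Emilin1 (0.56), an elastic fibre glycoprotein. For 8 of the 9 the share of cells with a UMI was also higher in detected cells of both libraries.

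The values of these 9 genes moved with the choice of cells and depth. In the reduced set, which is drawn from the same cells, all 9 kept their direction, with smaller values for each. Of the 9, 3 passed again, Mest and Shisa3 among them. Mecom moved to 0.58 ± 0.18 (adjusted p = 0.12). With every cell thinned to 4000 UMIs and Gdnf detection read from the thinned counts, 41 genes passed, and of the 9 only Shisa3 did (0.57). Mest then had a log2 fold change of 0.28.

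**Figure D2:**
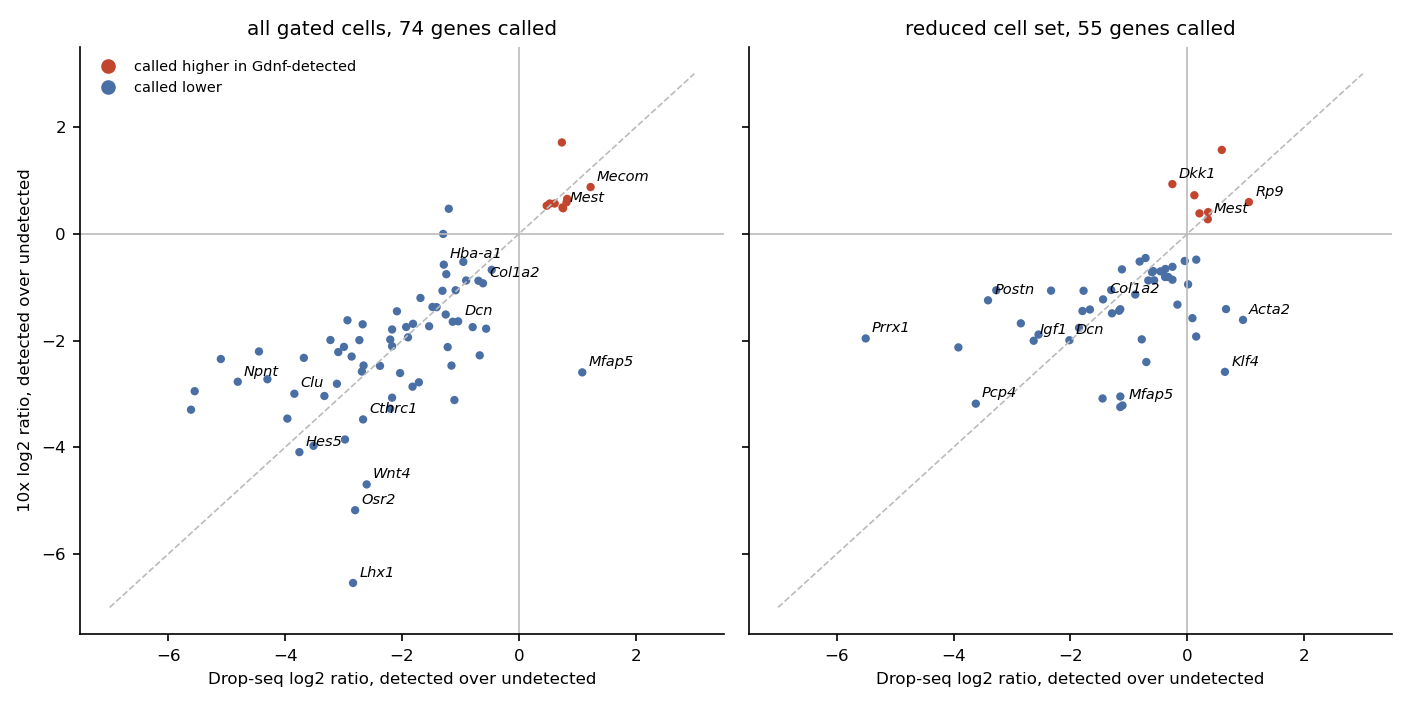
Log2 ratio of Gdnf-detected to matched Gdnf-undetected cells in 10x (vertical) against Drop-seq (horizontal) for the 74 genes called in all cells that met the rule (left) and the 55 called in the reduced set (right). Each point is a gene, with 0.5 counts added to each sum, and the dashed line marks equal ratios. All 9 genes called higher on the left lie above 0 in both libraries, while Acta2 and Klf4 on the right lie above 0 in Drop-seq and below in 10x.

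With the epithelial-transcript and haemoglobin-rich cells left out, most genes that passed were lower in Gdnf-detected cells, and many of them encode matrix proteins. Of 7839 genes tested 55 (0.702%) passed, 7 higher (0.0893%) and 48 lower (0.612%). Of the 65 genes lower in all cells 34 were still tested, 33 of them with the same sign, and 14 passed again. The reduced set is drawn from the same cells, which favours a shared sign. Of the 68 genes of the matrix and adhesion list 57 were tested and 14 fell, none rose, and the median log2 fold change was -0.35 against 0.00 over all genes tested. Of the 22 genes of other kidney stroma (medullary, capsular, mural and ureteric) 16 were tested and 8 fell, none rose, with a median of -1.08. Of the 10 pan-stromal genes all were tested and 5 fell (Col1a1, Col1a2, Col3a1, Tcf21 and Vim), with a median of -0.57. By limma-voom 10 matrix and adhesion, 5 other kidney stroma and 4 pan-stromal genes were called, and by DESeq2 2, 1 and 1. The matrix list shares members with the stromal lists, so these counts overlap and are not separate results.

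Col1a2 (chromosome 6, 4504814 to 4541544, mm10) had 109 UMIs in detected and 295 in undetected cells of Drop-seq, and 361 and 839 in 10x. These are 305 and 831 CPM, and 285 and 674 CPM, so both detected sums lay below both undetected sums (log2 fold change -1.3 ± 0.10, adjusted p = 2.3e-34). The share of cells with a Col1a2 UMI was 62.1% and 84.5% in Drop-seq and 71.2% and 81.9% in 10x. Col3a1, the type III collagen chain, had 364 and 791 CPM in Drop-seq and 414 and 663 in 10x (-0.82 ± 0.10, adjusted p = 2.6e-14). Col1a1, the partner chain of type I collagen, had 400 and 636 CPM, and 436 and 807 (-0.81 ± 0.09). In all cells that met the rule Col1a1 was not ordered alike, at 408 and 339 CPM in Drop-seq and 455 and 697 in 10x (adjusted p = 0.75), and Col3a1 did not pass there (-0.39 ± 0.11, adjusted p = 0.19).

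Dcn (decorin; chromosome 10, 97479609 to 97518143) had 61.6 and 253 CPM in Drop-seq and 67.0 and 271 in 10x (-2.01 ± 0.16, adjusted p = 1.9e-31). It had a UMI in 8.62% and 22.4% of Drop-seq cells and in 20.6% and 35.0% of 10x cells. In Drop-seq 1 cell held 68.2% of the 22 UMIs of the detected cells. Lum (lumican), a related proteoglycan, had 22.4 and 84.5 CPM in Drop-seq and 21.3 and 73.9 in 10x (-1.81 ± 0.28). It had -0.88 in cells with a Foxd1 UMI and -0.97 in cells with no cap gene UMI, and passed in neither. Again few Drop-seq cells carried it, 1 cell holding 62.5% of the detected and 1 cell 46.7% of the undetected UMIs.

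Postn (periostin), Ogn (osteoglycin), Col6a1, Col14a1, Fbln2 and Mfap5, all components of the extracellular matrix, fell and were lower in both libraries, with log2 fold changes of -1.65, -1.5, -1.47, -2.01, -1.4 and -2.92 in that order. Postn had 11.2 and 132 CPM in Drop-seq and 43.4 and 104 in 10x. Sparc, a collagen-binding glycoprotein, had 504 and 656 CPM in Drop-seq and 560 and 991 in 10x (-0.68 ± 0.09). Fbln5 (-1.13 ± 0.30) and Smoc2 (adjusted p = 0.0015) also passed, with ratios above 1 in Drop-seq and below 1 in 10x. Smoc2, a gene of the nephrogenic-zone stroma list, had 58.8 and 36.6 CPM in Drop-seq and 44.9 and 121 in 10x. Cthrc1, a secreted collagen-modulating protein, had 3 and 9 UMIs in Drop-seq and 8 and 71 in 10x (-2.82 ± 0.43). Other matrix genes did not pass. Fn1 (-0.03), Bgn (-0.13), Mfap4 (-0.07) and Tnc (0.09) were near 0, and Emilin1 had 0.25 ± 0.12 (adjusted p = 0.76).

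**Figure D3:**
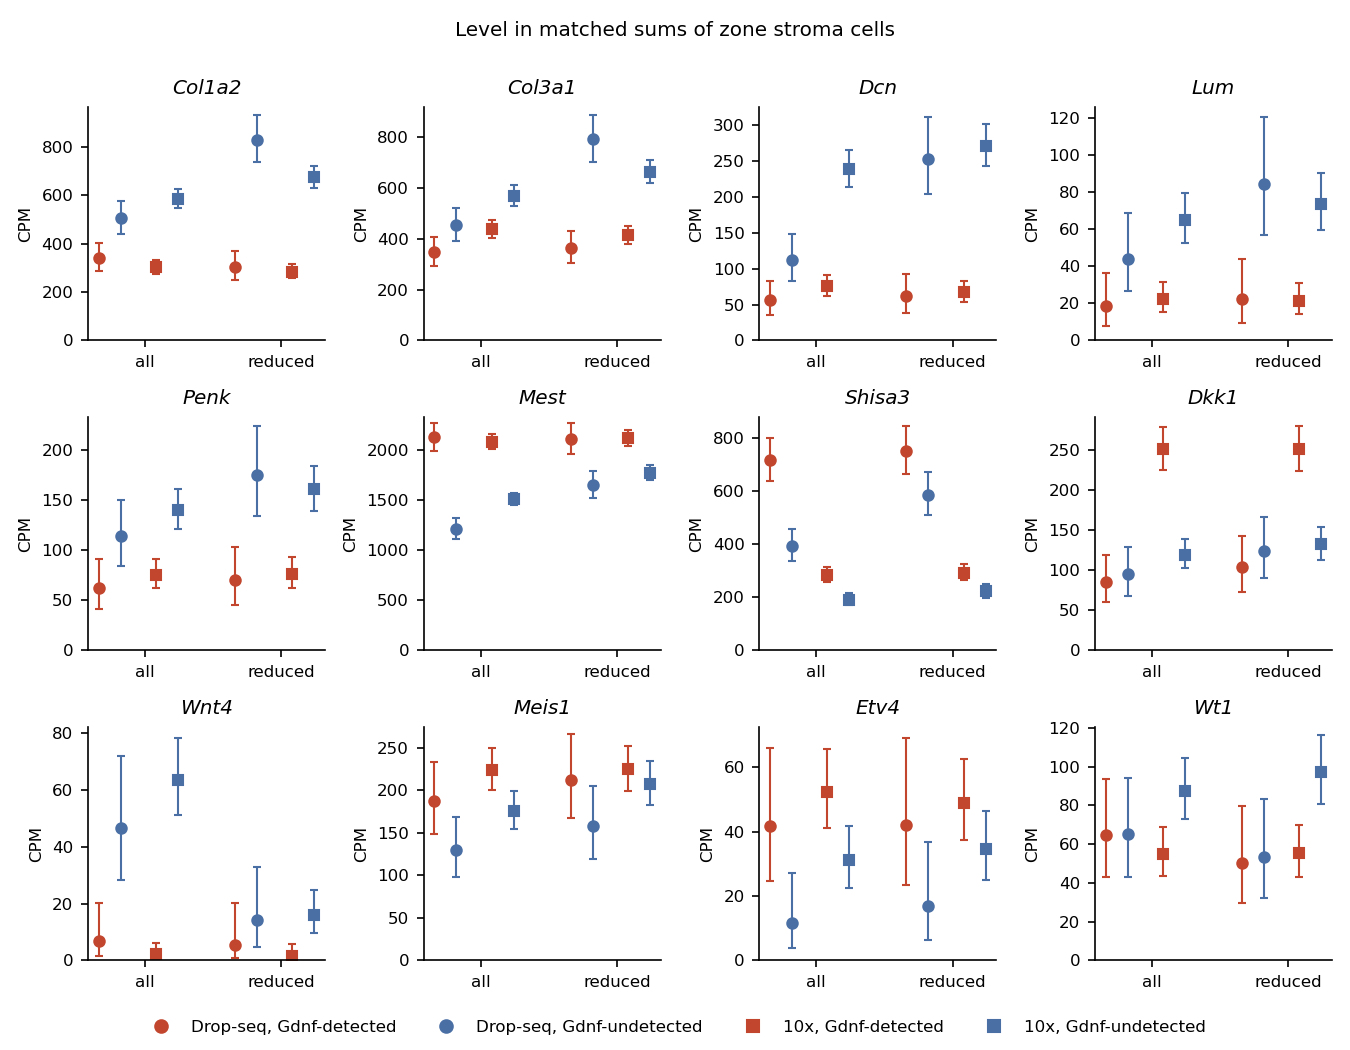
Level of 12 genes in sums of Gdnf-detected (red) and matched Gdnf-undetected (blue) zone stroma cells of Drop-seq (circles) and 10x (squares), in CPM, for all cells that met the rule and for the reduced set. Lines are exact Poisson 95% intervals of the counts, and each panel starts at 0. Red points lie below blue in Col1a2, Col3a1, Dcn, Lum and Penk of the reduced set and above blue in Mest, while Wt1 differs in 10x more than in Drop-seq.

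Genes of signalling fell beside the matrix genes. Penk, the proenkephalin precursor and a gene of medullary stroma, had 70.0 and 175 CPM in Drop-seq and 76.5 and 161 in 10x (-1.12 ± 0.18, adjusted p = 9.0e-08). Igf1, the insulin-like growth factor, had 8.40 and 59.1 CPM in Drop-seq and 15.0 and 61.8 in 10x (-2.17 ± 0.34, adjusted p = 1.5e-07), and Igfbp6 fell by 1.20. Of the 67 genes of the growth factor and guidance list 42 were tested, 3 fell and none rose (limma-voom called 2 and DESeq2 none), with a median of -0.18. Dlk1, a Notch-like ligand and the other gene that fell, had 333 and 343 CPM in Drop-seq and 389 and 560 in 10x (-0.38 ± 0.10). Pcp4, a calmodulin-binding peptide, had the largest decrease (-3.47 ± 0.47), with 2 and 30 UMIs in Drop-seq and 5 and 49 in 10x. Of its undetected UMIs 53.3% and 51.0% came from 1 cell of each library.

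WNT genes passed in both directions. Of 38 WNT genes 19 were tested, 5 fell and 1 rose (limma-voom called 2 and DESeq2 none), with a median of -0.35. Sfrp2, a secreted WNT antagonist, had 16.8 and 130 CPM in Drop-seq and 18.1 and 59.4 in 10x (-2.07 ± 0.30, adjusted p = 1.8e-09). The R-spondin Rspo3 (-1.65 ± 0.36) and the antagonist Dkk2 (-1.27 ± 0.30) were lower in both libraries. Wnt4 still passed (-2.57 ± 0.65, adjusted p = 0.013), with 20 undetected UMIs in 10x against 2 detected, but its 5 undetected UMIs in Drop-seq came from 1 cell. Sfrp1 passed (-0.74 ± 0.12) with 207 and 404 CPM in 10x and 182 and 180 in Drop-seq. Dkk1, an antagonist of WNT receptors, rose in the fit (0.69 ± 0.15), with 251 and 133 CPM in 10x but 104 and 124 in Drop-seq. The 10x share of cells with a Dkk1 UMI was 48.8% against 40 of 160.

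Among transcription factors 57 of 68 were tested, 4 fell and none rose (15 had an unadjusted p under 0.05, and limma-voom called 1), with a median of -0.07. Over all 7839 genes tested 495 had an unadjusted p under 0.05, and the counts of this kind given for lists here and below are to be read beside that. Prrx1, a factor of mesenchyme, had 0 and 22 UMIs in Drop-seq and 10 and 40 in 10x (-2.66 ± 0.47, adjusted p = 7.3e-06). Tshz3, a factor of ureteric smooth muscle, had 2 and 5 UMIs in Drop-seq and 2 and 23 in 10x (-2.73 ± 0.64). Tcf21, a factor of stroma and podocytes, had 227 and 400 CPM in Drop-seq and 7.09 and 10.4 in 10x (-0.78 ± 0.22, adjusted p = 0.046). Klf4 passed (-2.02 ± 0.44) on 10x counts of 10 and 62, with 5 and 3 in Drop-seq. The stromal factors Meis1 (0.21 ± 0.13) and Meis2 (0.28 ± 0.09) did not pass.

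Among the genes higher in Gdnf-detected cells of the reduced set were Rp9, Dkk1, Camk2n1, Shisa3, Ldha and Mest. Mest had 2107 and 1653 CPM in Drop-seq and 2117 and 1769 in 10x (0.30 ± 0.07, adjusted p = 0.0015). Rp9, a splicing-associated protein, had 165 and 78.8 CPM in Drop-seq and 137 and 91.6 in 10x (0.72 ± 0.17). Camk2n1, an inhibitor of CaM kinase II, differed mostly in 10x (233 and 142 CPM, against 129 and 118). Ldha, lactate dehydrogenase, had 781 and 676 CPM in Drop-seq and 1008 and 781 in 10x (0.32 ± 0.08). Thinned to 4000 UMIs, with detection read from the thinned counts, Dkk1 (0.85) and Camk2n1 (0.68) passed again, while Mest (0.17, adjusted p = 0.55) did not.

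Other genes of the GDNF-RET axis did not pass in the reduced set. Of 41 genes 25 were tested and none was called (4 had an unadjusted p under 0.05, and neither limma-voom nor DESeq2 called any), with a median of -0.07. Etv4 and Etv5, ETS factors induced by FGF and RET signalling, were higher in both libraries without passing. Etv4 had 42.0 and 16.9 CPM in Drop-seq and 48.9 and 34.5 in 10x (0.66 ± 0.30, adjusted p = 0.70), and Etv5 had 33.6 and 16.9, and 17.3 and 10.4 (0.83 ± 0.47, adjusted p = 0.82). Slit2, a repellent whose receptor Robo2 limits where Gdnf is expressed, had 25.2 and 45.0 CPM in Drop-seq and 22.9 and 36.9 in 10x (-0.72 ± 0.34, adjusted p = 0.72). Robo2 had 50.4 and 67.6, and 39.4 and 55.4 (-0.46 ± 0.26).

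The Hox11 genes, which act upstream of Gdnf in the metanephric mesenchyme, gave unlike values that did not pass. Hoxa11 had -1.20 ± 0.43 (adjusted p = 0.32), Hoxd11 -0.16 ± 0.22 and Hoxc11 0.57 ± 0.58. Hoxa11 had 10 UMIs in detected and 22 in undetected cells of Drop-seq and 10 and 24 in 10x. Spry1, a feedback inhibitor of RET, was not ordered alike, with 30.8 and 53.5 CPM in Drop-seq and 66.2 and 47.4 in 10x. Gfra1 had 2 to 4 UMIs in every sum and was not tested. Of 22 FGF genes 9 were tested and none was called (3 at an unadjusted p under 0.05, none by limma-voom or DESeq2), with a median of 0.27. Bmp4, which opposes budding, had 0 and 12 UMIs in Drop-seq and 29 and 29 in 10x.

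Markers of cap mesenchyme outside the rule did not pass either. Of 20 such genes 8 were tested, none was called (3 at an unadjusted p under 0.05, none by limma-voom or DESeq2), and the median was -0.16. Eya1, which activates Gdnf in the cap, had at most 3 UMIs in any sum and was not tested. Osr1 had 2 and 4 UMIs in Drop-seq and 3 and 18 in 10x and was not tested either. Sall1 had 70.0 and 33.8 CPM in Drop-seq and 41.8 and 32.9 in 10x (0.56 ± 0.29, adjusted p = 0.79). Wt1 had 50.4 and 53.5, and 55.2 and 97.2 (-0.65 ± 0.22, adjusted p = 0.24), Itga8 had -0.10 ± 0.30 and Pax2 -0.73 ± 0.59. Meox1 had 10 and 2 UMIs in Drop-seq and 28 and 17 in 10x (1.03 ± 0.47, adjusted p = 0.70). The cap genes of the rule were rare in both states. Cited1, the most frequent in 10x, had a UMI in 5.23% of detected and 7.56% of undetected matched 10x cells.

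Genes of the nephrogenic-zone stroma were mixed. Of 10 genes 6 were tested, and Smoc2 and Dlk1 fell, both above (limma-voom and DESeq2 called none). Fibin had 86.7 and 59.1 CPM in Drop-seq and 97.0 and 77.1 in 10x (0.39 ± 0.20, adjusted p = 0.79). Ntn1, netrin-1, had 44.8 and 56.3, and 42.6 and 45.0 (-0.14 ± 0.27). Among 20 retinoid genes 14 were tested and 1 fell. The retinoic acid receptor Rarb (-0.04 ± 0.24) and the retinoic acid target Ecm1 (-0.01 ± 0.13) were near 0.

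Among cell cycle and dissociation genes 1 passed. Of 36 cell cycle genes all were tested and Cdkn1c, an inhibitor, passed, at -0.26 ± 0.07, with 1318 and 1185 CPM in Drop-seq and 1969 and 2781 in 10x. In 10x 11.8% of its undetected UMIs came from 1 cell. In all cells that met the rule Cdkn1c had the reverse sign and did not pass. By limma-voom and DESeq2 no cell cycle gene was called in the reduced set. Mki67 (0.19 ± 0.15) and Top2a (-0.05 ± 0.10) did not pass, and the median of the list was 0.08. Of 29 dissociation genes 18 were tested and none was called (6 at an unadjusted p under 0.05, none by limma-voom or DESeq2), with a median of 0.09. Of 42 BMP and TGF-beta genes 24 were tested and of 13 Hedgehog genes 7, and none was called (4 and 1 at an unadjusted p under 0.05, none by limma-voom or DESeq2).

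Markers of other cell types were compared in the reduced set as summed levels. Several genes of the early nephron and erythroid lists, Emx2 and Hes5 among them, had chosen the cells left out. The sums of both lists therefore describe that choice and are no check on it. The early nephron list summed to 445 and 341 CPM in Drop-seq and 177 and 165 in 10x, and Emx2 and Hes5 had at most 2 UMIs in any sum. The erythroid list summed to 1044 and 1152 CPM in Drop-seq and 64.6 and 87.5 in 10x, and the immune list to 3.15 to 8.03 CPM. Endothelial genes outside the rule summed to 215 and 208 CPM, and 305 and 252. Their part in the differences above was not tested. Median mitochondrial shares and genes per cell of all matched cells were 2.83% and 2.53% and 2511 and 2459 in Drop-seq, and 4.10% and 4.10% and 2792 and 2808 in 10x.

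**Figure D4:**
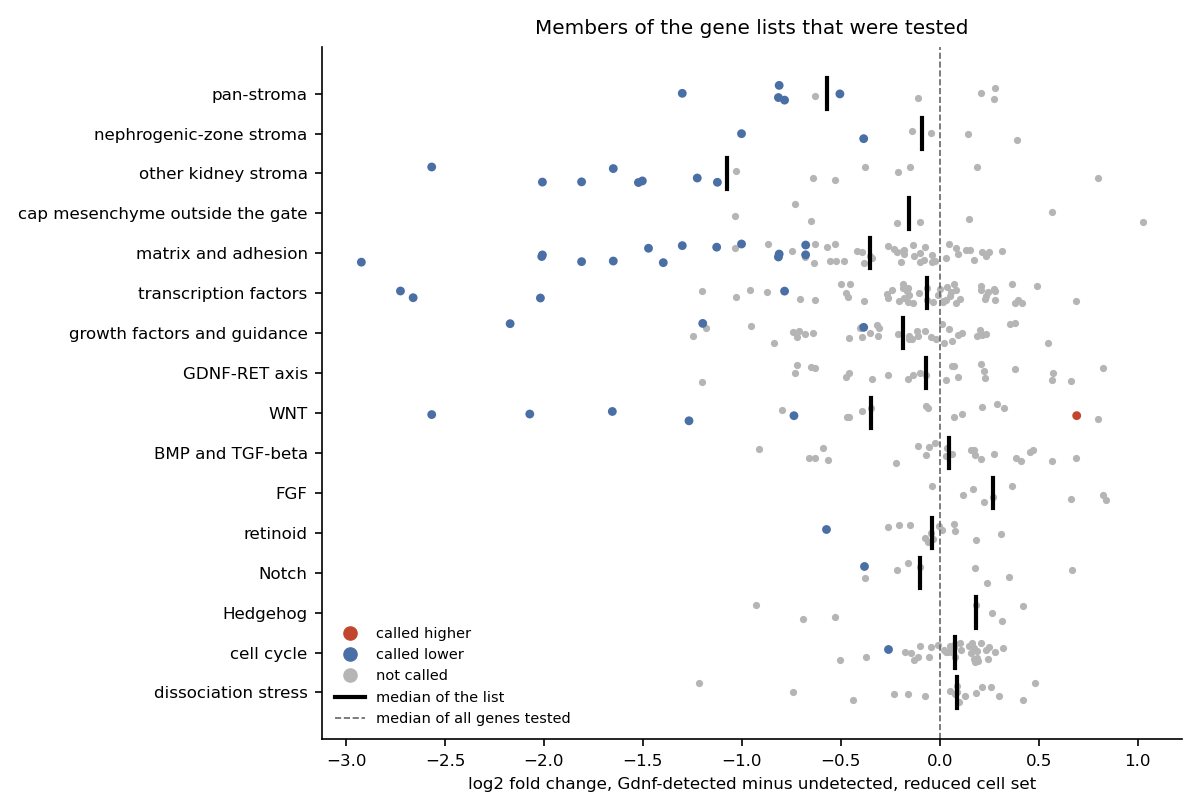
Log2 fold change, Gdnf-detected minus Gdnf-undetected, of the tested members of 16 gene lists in the reduced set. Points are genes, coloured where the adjusted p was under 0.05, black bars are list medians and the dashed line is the median of all genes tested. Coloured points gather left of 0 in the matrix, pan-stromal and other kidney stroma lists, and Dkk1 in the WNT list is the single coloured point right of 0. A gene can stand in several lists.

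The reduced-set fit took 1 spread as common to all genes, so genes on which the libraries disagreed could pass. Of the 48 lower genes 41, and of the 7 higher genes 6, had the same direction in both libraries. DESeq2 called 3 of the 55 (Col1a2, Dcn and Tmsb4x), and limma-voom 28. Restricted to cells with a Foxd1 UMI, 26 genes passed (0.388% of 6698), 23 of them among the 55, and all 47 of the 55 that were tested kept their direction. Col1a2 had -1.15 and Dcn -1.46 there, and Mest 0.32. Of the genes named above, Lum, Ogn, Col14a1, Fbln2, Fbln5, Smoc2, Prrx1, Tcf21, Rspo3, Vim, Acta2, Rp9, Dkk1, Camk2n1, Shisa3 and Ldha did not pass there. In cells with no cap gene UMI at all, 4 of the 55 passed (Col1a2, Dcn, Pcp4 and Tmsb4x), while all 49 tested kept their direction. Both restrictions draw on the same cells that gave the 55 calls, so a shared direction was favoured beforehand.

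The same comparison in cap mesenchyme gave few calls. Of 5669 genes 7 (0.123%) passed, 4 haemoglobin genes higher in Gdnf-detected cells (Hba-a1, Hba-a2, Hbb-bs and Hbb-bt) and Malat1, Xist and Usp7 lower. The reduced set of cap mesenchyme left out only cells over 1% haemoglobin and kept cells with epithelial transcripts (55 pairs in Drop-seq, 36 in 10x). Of 5647 genes 2 passed there (0.0354%), Malat1 and Xist. Usp7, a deubiquitinase (-1.45 ± 0.35, adjusted p = 0.033), was named after its value was seen. Without that reduction 56 matched pairs in Drop-seq and 36 in 10x entered, and Col1a2 had 54.4 and 64.2 CPM in Drop-seq and 52.6 and 31.2 in 10x. A test of the difference between stroma and cap mesenchyme, with 8 sums and 2 residual degrees of freedom, called 24 of 7082 genes (0.339%). Mest was among them, higher by 0.49 ± 0.13 in stroma than in cap (adjusted p = 0.045), with 0.11 ± 0.10 in cap mesenchyme alone. Peg3, another imprinted gene, differed by 0.87 ± 0.18 (adjusted p = 0.0030; 0.54 and adjusted p = 0.47 in the reduced set), with 705 and 346 CPM in Drop-seq stroma, 417 and 341 in 10x stroma, 381 and 469 in Drop-seq cap and 291 and 362 in 10x cap.

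For the reduced-set test of the difference, cells with epithelial transcripts were left out of stroma but not of cap mesenchyme. There 3 of 6741 genes (0.0445%) differed between the classes, Pcp4 (-4.18 ± 0.61, adjusted p = 2.4e-05), Sparc (-0.80 ± 0.16) and Tmsb4x (-0.78 ± 0.15). Tmsb4x, thymosin beta 4, had 778 and 1070 CPM in Drop-seq stroma and 2175 and 3578 in 10x stroma, against 262 and 214, and 436 and 431 in cap mesenchyme. The difference for Col1a2 was -1.37 ± 0.33 and did not pass (adjusted p = 0.17), and that for Mest was 0.19 ± 0.11 (adjusted p = 0.98). The decrease of Col1a2 passed in stroma and was not shown to differ from the value in cap mesenchyme.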

How the data were processed

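Drop-seq and 10x libraries of wild-type kidney at embryonic day 14.5 were used, with 17968883 and 18113966 UMIs in 2000 and 2295 barcodes. The authors deposited whole-number UMI counts per gene and cell. Per the submitters' processing notes, Bowtie2 2.2.7 was used for Drop-seq, Cell Ranger 1.3.0 for 10x, and mm10 as the build of both. The sources used here do not give the annotation, the choice of barcodes or the tool that counted Drop-seq reads. The preparation text of the labels describes Drop-seq for both libraries. No barcode sequence was shared between the libraries, and 186 Drop-seq barcodes held an unread base.

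Cells, gene lists and tests were chosen with earlier results of these data known. Each Gdnf-detected cell was matched, deepest first and without replacement, to the undetected cell of the same library nearest in total UMIs without Gdnf, within 0.1 on the log2 scale. Full counts of 20277 shared symbols were summed per library and state, and Gdnf and the 11 genes of the rule were left untested. The robust quasi-likelihood test of edgeR 4.0.16, run in R 4.3.3, was applied to these sums after filterByExpr and TMM scaling, with the library as a block. Two-sided p-values were adjusted over all genes tested (Benjamini-Hochberg, threshold 0.05). limma-voom (limma 3.58.1) and DESeq2 1.42.0 were alternatives. There is 1 library per platform, and the labels do not say whether the libraries came from separate animals. The spread behind the p-values comes from disagreement between libraries, shared across genes, and may be technical. Sums of the same library are paired by the library they share. Scrublet in scanpy 1.11.5 called 28 doublets in 10x (1 Gdnf-detected and 1 Gdnf-undetected zone stroma cell). It called 5 in Drop-seq (0.25%), which was taken as a failed run. None was removed. Scripts were tested on simulated data (Python 3.11.15, numpy 2.4.6, pandas 2.3.3, scipy 1.17.1).

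Genes named are the up to 12 of largest change in each direction among those that passed with the same direction in both libraries, a fixed set of GDNF, cap and stroma genes, and the 5 largest in each direction of the difference from cap mesenchyme. List members that passed and the same choice in the reduced set were added after seeing the data. Coordinates are from GENCODE vM21 on mm10. Some genes that the naming rule picks are not reported here.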

Additional observations from a re-analysis of the deposited data

Results flagged for a closer look

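The difference between Gdnf-detected and Gdnf-undetected cells was not the same in zone stroma as in cap mesenchyme for the genes below, by the test of the difference itself (edgeR's quasi-likelihood test over 8 sums). Values are stroma minus cap mesenchyme on the log2 scale, and no explanation was tested. In the reduced set, cells with epithelial transcripts were left out of stroma only. Across all cells that met the rule, Osr2 differed by -5.91 (adjusted p = 1.8e-04), Lhx1 by -4.16 (adjusted p = 0.0015) and Chchd10 by -3.75 (adjusted p = 1.6e-06). In cap mesenchyme Osr2 had 6 and 1 UMIs in detected and undetected cells of Drop-seq and 2 and 2 in 10x. Chchd10 had 25 and 19, and 20 and 17.

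The haemoglobin genes Hbb-bs and Hbb-bt differed by -4.04 and -3.98, and Hbb-y by 4.20. Hbb-bs had 2176 and 268 CPM in detected and undetected cap mesenchyme cells of Drop-seq, and Hbb-y 21.4 and 470. In the reduced set the differences were -0.23, 0.49 and -0.40 and did not pass. Cells were left out of that set by these same genes, so the values only describe the cells kept.

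Xist differed by 0.88, Peg3 by 0.87, Mest by 0.49 and Malat1 by 0.43. None of these passed in the reduced set, where they had 0.63 (adjusted p = 0.45), 0.54 (0.47), 0.19 (0.98) and 0.24 (0.70). Nor did Chchd10 (-1.43, adjusted p = 0.98), and Osr2 and Lhx1 were not tested there. For Xist and Malat1 it was cap mesenchyme that carried a change (-0.70 and -0.42), and in stroma they had 0.19 and 0.02. In the reduced set Pcp4 differed by -4.18, Sparc by -0.80 and Tmsb4x by -0.78. Pcp4 had 45 and 20 UMIs in Drop-seq cap mesenchyme and 5 and 9 in 10x.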

How the results depend on the processing

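Counts of genes that passed moved with the choice of cells. Against 74 in all cells that met the rule, there were 41 when thinned to 4000 UMIs, 33 with a second seed, 0 at 2500 UMIs (209 at an unadjusted p under 0.05), 32 with the rule read from thinned counts, 192 without matching and 148 with 2 undetected cells per detected cell. There were 42 for 2 or more Gdnf UMIs, 30 for 3 or more zone genes, 23 for cells with a Foxd1 UMI and 39 without cells over 1% haemoglobin. Dropping the filter on low counts gave 143, a minimum of 20 counts 138, DESeq2 3, and the fit with no replicate block 0 (86 at an unadjusted p under 0.05). Against 55 in the reduced set there were 97 with 2 undetected cells per detected cell, 4 without cap genes, 26 with a Foxd1 UMI, 28 by limma-voom, 3 by DESeq2 and 0 with no replicate block (34 at an unadjusted p under 0.05). Calls in cap mesenchyme went from 7 to 2 in the reduced set, and those of the difference from 24 to 3 there and 5 when thinned to 4000 UMIs. At 2500 UMIs the shares with a Gdnf UMI were 9.58% and 16.1% in stroma and 7.82% and 6.82% in cap mesenchyme of Drop-seq and 10x.

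Haemoglobin genes reversed. Hba-a2 had 0.021 without cap genes, 0.69 at 2500 UMIs, 0.34 thinned with full-count detection, 0.99 with the second seed and 0.76 unmatched. Hbb-bs had 0.69, 0.19, 0.79 and 0.51 in the last 4 of these, and Hba-a1 0.56, 0.27, 0.87 and 0.54. Hbb-bt had 0.070, 1.05, 0.46, 0.96 and 0.80 in the same 5, 0.034 in the reduced set, 0.10 without cells over 1% haemoglobin, 0.090 thinned to 4000 UMIs, and 0.47 without Drop-seq and -1.20 without 10x. Mfap5 had 1.08 without 10x and -2.60 without Drop-seq. Cdkn1c did not pass in all cells that met the rule. Its sign there was the reverse of that in the reduced set (-0.26) and with the second seed (-0.38). The cause was not tested. Leaving out a library leaves no residual degrees of freedom, so no counts were made. Depth limits genes of few UMIs, which the filter on low counts left untested.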
